A study of Mus musculus with 8 samples.

Results

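The Ly6 family of chromosome 15 encodes small cysteine-rich proteins that are held on the cell surface by a glycosylphosphatidylinositol (GPI) anchor. Several members are classical lymphocyte antigens, many are induced by interferon, and their antigenic forms and expression differ between inbred mouse strains. On T cells, Ly6a (Sca-1) and the Ly6C antigens mark states of activation and memory, while other members belong mainly to B lineage cells, myeloid cells, neurons or germ cells. The members examined were Ly6a, Ly6c1, Ly6c2, Ly6d, Ly6e, Ly6h, Ly6i and Ly6k, chosen by name with earlier results of these data known. Each was to be read by a probe set that names this gene alone. Of these 8 genes, 7 had such a probe set among the 6986 genes tested. Ly6a had none and was not analysed here.

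Lymphocytes carrying CD4 and CD25, a sorted fraction rich in regulatory T cells (Treg), were taken from the para-aortic nodes that drain the uterus and profiled on Affymetrix Mouse Gene 2.0 ST arrays. The mice were pregnant, at day 9.5 post coitus. The 4 Il10+/+ arrays came from C57BL/6 mice, and the 4 Il10-/- arrays from mutants that had been backcrossed into the same colony and lack interleukin 10, an anti-inflammatory cytokine. The Il10-/- mice also drank oxytetracycline at 2 mg/ml against colitis, which is not stated for the Il10+/+ mice, so antibiotic and genotype cannot be told apart. Each array held RNA pooled from 2 to 4 mice, so the spread within a group is the spread between separate pools. The comparison asks how this cell fraction of pregnancy differs without interleukin 10.

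The median of the tested genes lay between 6.97 and 7.12 log2 units in the 8 arrays. Il10-/- replicate 2 and Il10+/+ replicate 4 stood apart, with interquartile ranges of 2.15 and 2.17 against 2.32 to 2.58 in the others. In both of these arrays together, 14.1% of all tested genes read above the 6 other arrays and 9.42% below them. Those 6 were not uniform, since Il10+/+ replicate 2 had the widest interquartile range (2.58). On the first principal component of the tested genes it lay at -13.3, the rest of the 6 between -5.58 and -2.72. The pair that stood apart lay at 16.6 and 17.8. Foxp3, Il2ra and Cd4 were not analysed here. The 5 measured Treg markers, Ctla4 among them, had a mean level of 9.72 to 10.11 in Il10-/- and 9.75 to 10.11 in Il10+/+. Socs2, a feedback inhibitor of cytokine signalling, differed by 0.56 and Ikzf2, the transcription factor Helios, by -0.19 (limma, adjusted p = 0.999 each). The 4 measured of 17 T cell markers had a mean level of 10.32 to 10.62 in Il10-/- and 10.48 to 10.62 in Il10+/+, with Themis at 0.21 and Ptprc at -0.092. A probe set's value also depends on its probes, so levels are compared between arrays and not between genes. In bulk RNA from pooled cells, fewer cells of a type and less RNA per cell cannot be told apart.

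Ly6c1 and Ly6c2 encode nearly the same Ly6C antigen, and their readings were uncorrelated over the arrays, as described further on. The stretches just upstream of both genes are therefore shown, from the RefSeq promoter windows of GRCm38.p6. Ly6c1 is on the minus strand, chr15:75048921-75049056, and Ly6c2 on the minus strand, chr15:75112088-75112221, both outside the annotated span of the gene. They are written 5′ to 3′, and capitals mark bases that differ from, or are absent in, the other gene.
Ly6c1: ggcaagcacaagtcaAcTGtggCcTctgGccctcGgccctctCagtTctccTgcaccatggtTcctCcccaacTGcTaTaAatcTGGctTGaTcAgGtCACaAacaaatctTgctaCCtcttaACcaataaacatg
Ly6c2: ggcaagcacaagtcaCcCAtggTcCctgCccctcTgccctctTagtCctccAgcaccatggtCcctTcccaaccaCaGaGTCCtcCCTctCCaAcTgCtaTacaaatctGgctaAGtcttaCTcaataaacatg
The stretches shown run from the first to the last aligned pair of bases, with the unmatched ends of the alignment left out. The sequences aligned were cut at the window and at the annotated gene end. The ends left out may therefore have counterparts beyond those limits. Over the 140 columns of this core, 102 bases were identical (72.9%), 28 differed and 10 stood opposite a gap. The 250 bases upstream of each listed start, 4 windows in all for these genes, held no match to the interferon gamma-activated site TTCNNNGAA or to GAAANNGAA, a core of the interferon-stimulated response element, searched on both strands and with overlaps of the motifs allowed. The windows of each gene overlap, so the 4 are not independent. Among all 32851 windows of that length, 7.02% held the former motif and 7.13% the latter, so an absence in so few windows says little. In windows of the tested interferon-inducible genes listed for comparison, 45.8% (22 of 48) held the latter. The table used here held no window for the other members.

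None of the 7 Ly6 genes differed between the genotypes beyond the spread between pools. By limma with Benjamini-Hochberg adjustment over all genes, 0 of 7 passed the threshold of 0.05, with an adjusted p of 0.999 for each, and 0 of 7 had an unadjusted p under 0.05. Over all tested genes, 0.0286% passed, namely Ctse and Efcab2, both higher in Il10-/-, and 4.78% had an unadjusted p under 0.05. The groups overlapped for every one of the 7 genes, against 2.92% of all genes without overlap. The differences, Il10-/- minus Il10+/+, ran from -0.31 for Ly6c1 to 0.29 for Ly6d on the log2 scale. Their median was 0.067, with 5 positive and 2 negative, and the median over all tested genes was 0.0025. With so few pools the intervals were wide for several members, and they are given with each gene.

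**Figure D1:**
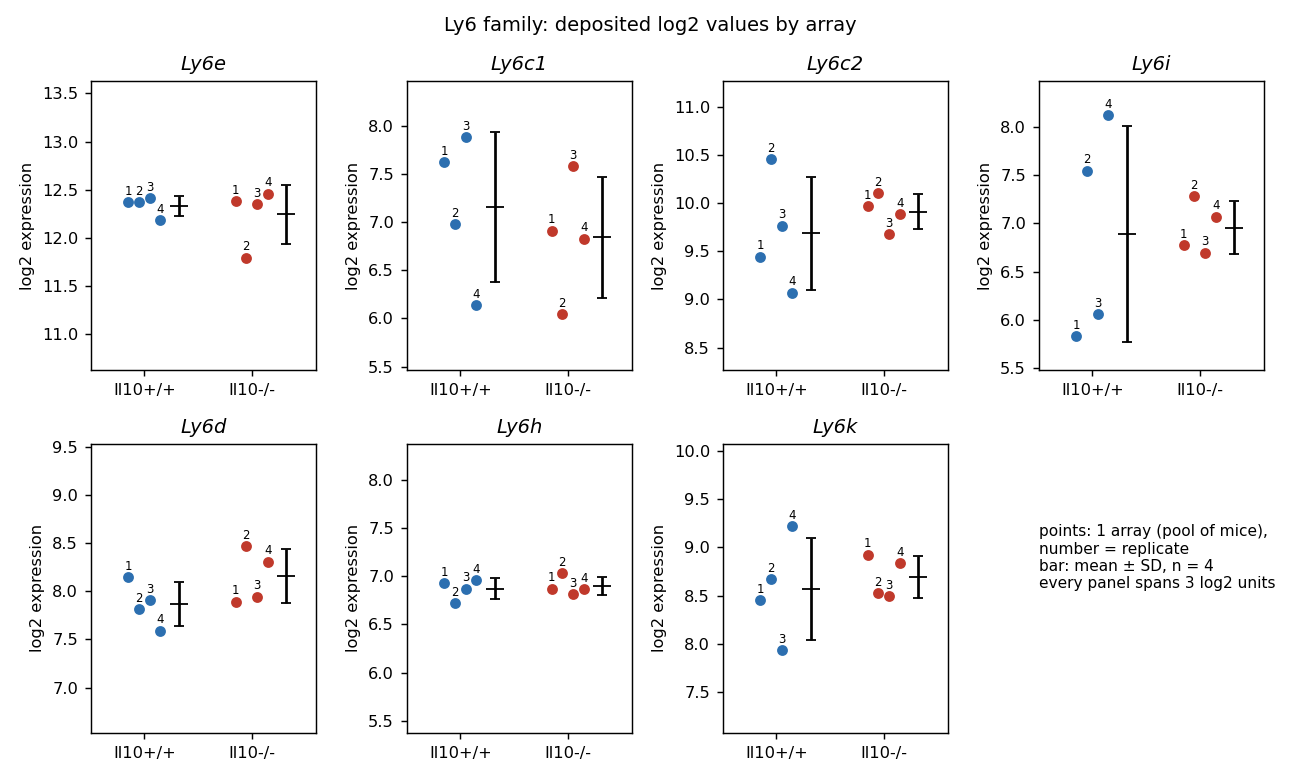
Deposited log2 expression values of the 7 measured Ly6 genes in each array, Il10+/+ in blue and Il10-/- in red, numbered by replicate, with the mean ± SD of the 4 arrays as a bar; every panel spans the same number of log2 units. The groups overlap in every panel, and the Il10+/+ points of Ly6i run from 5.83 to 8.12 while the Il10-/- points run from 6.70 to 7.28.

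**Figure D2:**
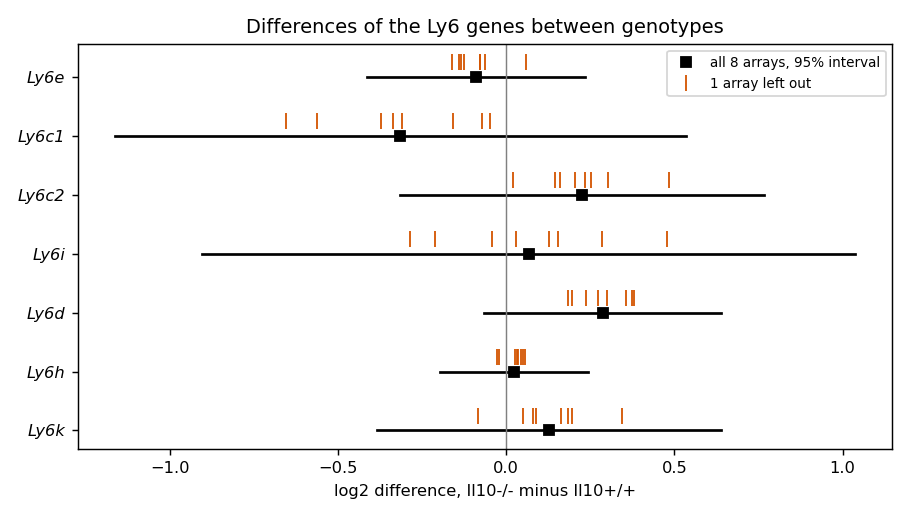
Log2 difference, Il10-/- minus Il10+/+, of each Ly6 gene (squares) with its 95% interval by limma (lines), and the same difference with each of the 8 arrays left out in turn (orange ticks). All 7 intervals include 0, and the ticks fall on both sides of 0 for Ly6e, Ly6h, Ly6i and Ly6k.

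Among the members with a known place on T cells, Ly6e, also called TSA-1 or Sca-2, is a thymocyte and lymphocyte antigen induced by interferon. It read 12.38, 11.80, 12.35 and 12.46 in Il10-/- replicates 1 to 4. In Il10+/+ it read 12.37, 12.37, 12.42 and 12.18. The signal was steady near 12.4 in 6 arrays and lower in Il10-/- replicate 2 and Il10+/+ replicate 4, the pair of arrays that stood apart. Group means stood at 12.25 ± 0.30 (Il10-/-) and 12.34 ± 0.10 (Il10+/+; SD, n = 4 each), which is a difference of -0.090 (SE 0.147, 95% interval -0.41 to 0.23, exact permutation p = 0.800). Without Il10-/- replicate 2 the difference was 0.060, and it was 0.0090 when Il10+/+ replicate 4 was left out as well.

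Ly6c1 encodes one of the paired forms of the Ly6C antigen, carried by monocytes, endothelium and subsets of T cells. Its readings were 6.91, 6.04, 7.58 and 6.83 in Il10-/-, and 7.62, 6.98, 7.88 and 6.14 in Il10+/+, replicates 1 to 4. Values near 6.1 occurred once in each genotype, again in Il10-/- replicate 2 and Il10+/+ replicate 4, and values above 7.5 occurred in both genotypes. The averages of 6.84 ± 0.63 in Il10-/- and 7.15 ± 0.78 in Il10+/+ (SD, n = 4 each) gave a difference of -0.31 (SE 0.38, 95% interval -1.16 to 0.53, exact permutation p = 0.429). The difference was -0.049 without Il10-/- replicate 2, -0.65 without Il10+/+ replicate 4 and -0.39 without both. Over all genes, the SD of Ly6c1 lay at percentile 99.4 in Il10-/- and 99.2 in Il10+/+, so this gene varied widely between pools of either genotype.

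Ly6c2, the partner gene, encodes the form abundant on monocytes and memory T cells. Il10-/- replicates 1 to 4 read 9.97, 10.11, 9.68 and 9.89. Il10+/+ replicates 1 to 4 read 9.44, 10.46, 9.77 and 9.07. The Il10-/- pools lay close together and inside the range of the Il10+/+ pools, whose highest and lowest values were the extremes of all 8 arrays. Il10-/- averaged 9.91 ± 0.18 and Il10+/+ 9.68 ± 0.59 (SD, n = 4 each), a difference of 0.23 (SE 0.25, 95% interval -0.32 to 0.77, exact permutation p = 0.486). It was 0.48 without Il10+/+ replicate 2, 0.021 without Il10+/+ replicate 4 and was -0.045 without both arrays that stood apart, in no case past the threshold. The probe sets of Ly6c1 and Ly6c2 each name a single gene, but transcripts this alike can share signal, so their separate values are uncertain.

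Ly6i, a close relative of Ly6a and the Ly6C genes described in bone marrow and myeloid cells, had the widest range of the family. It read 6.77, 7.28, 6.70 and 7.07 in Il10-/- replicates 1 to 4. In Il10+/+ it read 5.83, 7.55, 6.06 and 8.12. The Il10+/+ pools fell into a low and a high pair, 1 and 3 against 2 and 4, with the whole Il10-/- group between them. The Il10-/- mean of 6.96 ± 0.27 and the Il10+/+ mean of 6.89 ± 1.12 (SD, n = 4 each) differed by 0.067 (SE 0.44, 95% interval -0.90 to 1.04, exact permutation p = 0.914). Its sign turned without Il10-/- replicate 2 (-0.043), Il10+/+ replicate 1 (-0.29) or Il10+/+ replicate 3 (-0.21), and the difference was 0.48 without Il10+/+ replicate 4. An interval this wide does not show that the genotypes are alike, and the close relationship to other Ly6 genes leaves the separate value uncertain here too.

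Ly6d, also called ThB, marks commitment to the B lineage and is also found in keratinocytes. It read 7.89, 8.47, 7.94 and 8.31 in Il10-/- replicates 1 to 4. In Il10+/+ it read 8.15, 7.82, 7.91 and 7.59. The highest pools were Il10-/- replicates 2 and 4 and the lowest was Il10+/+ replicate 4. Il10-/- pools averaged 8.15 ± 0.28 and Il10+/+ pools 7.87 ± 0.23 (SD, n = 4 each), for a difference of 0.29 (SE 0.16, 95% interval -0.064 to 0.64, exact permutation p = 0.171). This was the smallest unadjusted p of the family (limma, 0.0994), and the difference was 0.18 without Il10-/- replicate 2 and 0.092 with Il10+/+ replicate 4 left out as well. The mean level of the 8 measured of 18 listed B cell markers was 6.81, 7.25, 6.89 and 6.98 in Il10-/- and 6.78, 6.84, 6.89 and 6.76 in Il10+/+, replicates 1 to 4. It was likewise highest in Il10-/- replicates 2 and 4 and lowest in Il10+/+ replicate 4. Pearson's r between Ly6d and that mean was 0.795 over the 8 arrays, which share their RNA amplification and scale. Such a value is not particular to this pair. Ly6c2 had an r of 0.865 with the mean of the CD8 T cell and NK cell markers. Ly6e had one of 0.893 with the T cell marker mean and Ly6h one of 0.927 with the mean of other Ly6/uPAR genes. Single markers did not all follow Ly6d: Blk was highest in Il10+/+ replicate 2 (8.53), and Cr2 read 6.17 in Il10-/- replicate 4, below all 4 Il10+/+ arrays. Of these markers 7 had a positive difference and Fcmr a negative one (-0.084). They were led by the Toll-like receptor homologue Cd180 (0.51, adjusted p = 0.873 by limma) and the receptor subunit Cd79b (0.27, adjusted p = 0.999), and 0 passed the threshold. The only plasmacytoid dendritic cell marker measured, Pld4, read 6.68 ± 0.31 in Il10-/- and 6.41 ± 0.10 in Il10+/+ (SD, n = 4 each). The part of other cells in the Ly6d value was not tested.

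The remaining members are known from other tissues. Ly6h, a neuronal member that acts on nicotinic acetylcholine receptors, read 6.87, 7.03, 6.81 and 6.87 in Il10-/- and 6.93, 6.72, 6.87 and 6.96 in Il10+/+, replicates 1 to 4. It was the steadiest gene of the family, and its highest values in each genotype were those of the arrays that stood apart. On average Il10-/- read 6.89 ± 0.093 and Il10+/+ 6.87 ± 0.11 (SD, n = 4 each), a difference of 0.024 (SE 0.099, 95% interval -0.20 to 0.24, exact permutation p = 0.743). Over the arrays Ly6h ran against the interquartile range, with Pearson's r of -0.845 over the 8 arrays. For Ly6e that r was 0.737, and for the remaining members it lay between -0.353 (Ly6i) and 0.596 (Ly6c1). Without Il10-/- replicate 2 or Il10+/+ replicate 2 the sign of the Ly6h difference turned (-0.020 and -0.026).

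Ly6k, a member of male germ cells that is needed for sperm function, had a pair of probe sets, and the brighter gave 8.93, 8.53, 8.49 and 8.84 in Il10-/- replicates 1 to 4. In Il10+/+ it gave 8.45, 8.67, 7.93 and 9.22. Again the Il10-/- pools lay inside the range of the Il10+/+ pools. The mean was 8.70 ± 0.22 in Il10-/- and 8.57 ± 0.53 in Il10+/+ (SD, n = 4 each), a difference of 0.13 (SE 0.23, 95% interval -0.38 to 0.64, exact permutation p = 0.686). It was -0.084 without Il10+/+ replicate 3, 0.345 without Il10+/+ replicate 4 and 0.40 with Il10-/- replicate 2 left out as well. The dimmer probe set of Ly6k, which averaged 5.75 in Il10-/- and 5.85 in Il10+/+ (difference -0.095), did not share this pattern and stayed between 5.51 and 6.00 in all arrays.

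No detection call was used, so a value does not show that a gene is expressed. As a guide to the low end of the scale, 90% of the 230 tested olfactory receptor genes, which T cells are not known to use, had means over the 8 arrays between 2.87 and 7.07. The means of Ly6c1 (7.00), Ly6i (6.92) and Ly6h (6.88) fell within that band. Those of Ly6d (8.01), Ly6k (8.63), Ly6c2 (9.80) and Ly6e (12.29) lay outside it.

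More marked than the genotype differences was the spread of some members between pools. A range of at least 1 log2 unit over the 8 arrays occurred in 4 of the 7 genes, Ly6i (2.29), Ly6c1 (1.84), Ly6c2 (1.39) and Ly6k (1.29), and in 10.5% of all tested genes. Of these 4 genes, Ly6c1 and Ly6i had means within the olfactory receptor band, and the dimmer Ly6k probe set stayed between 5.51 and 6.00. With both arrays that stood apart left out, values ran from 6.83 to 7.88 for Ly6c1 and 9.44 to 10.46 for Ly6c2. They ran from 5.83 to 7.55 for Ly6i and 7.93 to 8.925 for Ly6k. For 3 members the SD among Il10+/+ pools was at least 2 times that among Il10-/- pools: 4.12 times for Ly6i, 3.31 times for Ly6c2 and 2.44 times for Ly6k. Of all tested genes, 22.1% had such a ratio, so this direction was common on these arrays. Ly6e had the opposite ratio, with SDs of 0.304 in Il10-/- and 0.104 in Il10+/+, as had 9.65% of all genes, and its wide group was the one that held Il10-/- replicate 2. These spreads are given as a description, and their difference between genotypes was not tested.

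**Figure D3:**
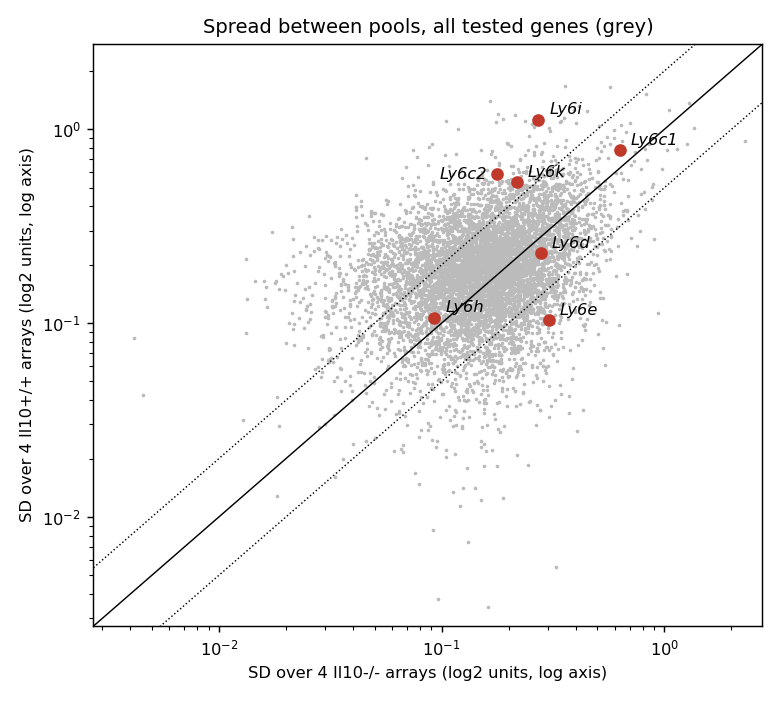
SD between the 4 Il10-/- arrays against SD between the 4 Il10+/+ arrays for every tested gene (grey) and the 7 Ly6 genes (red), in log2 units on log axes; the solid line marks equal SDs and the dotted lines a ratio of 2. Ly6i, Ly6c2 and Ly6k lie above the upper dotted line, Ly6e below the lower one, and Ly6c1 is far out near the solid line.

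The members did not vary together as a block. Ly6c1 and Ly6c2 had a Pearson's r of -0.015 over the 8 arrays. In Il10-/- replicate 2, for instance, Ly6c1 was at its lowest (6.04) and Ly6c2 at 10.11, its second highest. Ly6c1 and Ly6i ran in opposite directions, with r = -0.834. The arrays highest in Ly6c1, Il10+/+ replicates 1 and 3, were the lowest in Ly6i. Ly6i and Ly6k ran in the same direction (r = 0.746), both peaking in Il10+/+ replicate 4, and Ly6c1 and Ly6e did so too (r = 0.708), both low in the arrays that stood apart. Over all pairs of tested genes on the same 8 arrays, the middle 95% of r lay between -0.749 and 0.775. Of the 21 pairs of members, Ly6c1 with Ly6i fell outside that span. These values describe 8 arrays that share amplification and normalization and carry no test.

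**Figure D4:**
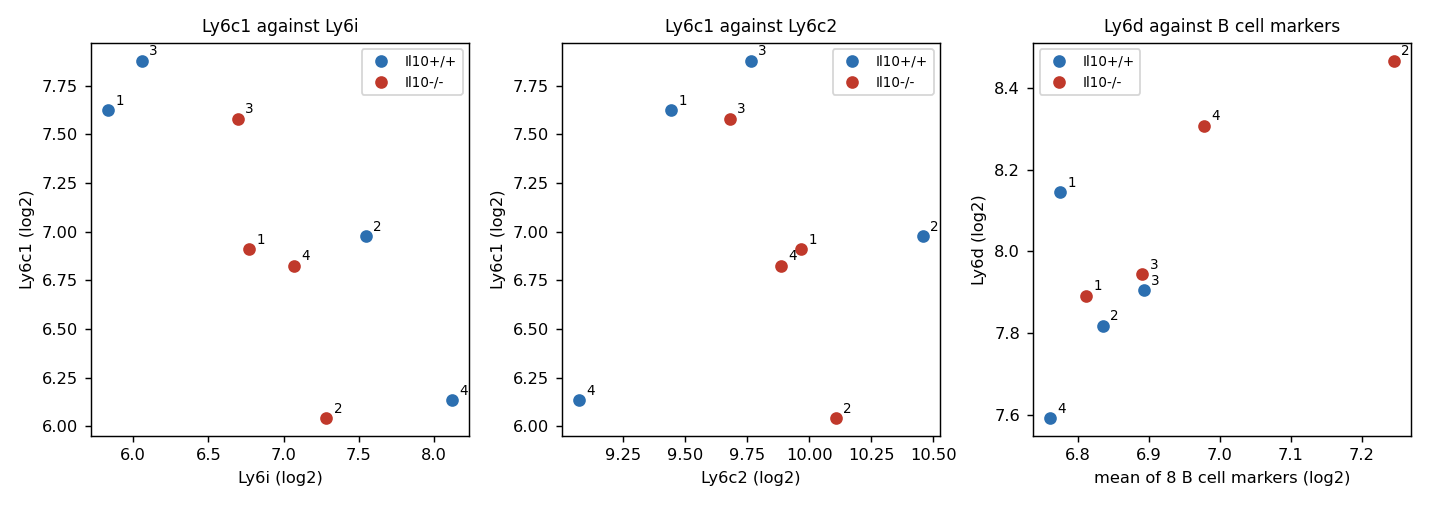
Log2 values per array (Il10+/+ blue, Il10-/- red, numbered by replicate) of Ly6c1 against Ly6i, of Ly6c1 against Ly6c2, and of Ly6d against the mean of the 8 measured B cell markers. Ly6c1 falls as Ly6i goes up (r = -0.834), shows no trend with Ly6c2 (r = -0.015), and Ly6d is highest in Il10-/- replicate 2, where the B cell markers are highest at 7.25.

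The genes most like the 3 most variable members over the 8 arrays were sought among all tested genes. For Ly6i they were Scin, which encodes the actin-severing protein scinderin (r = 0.982), 1700109G15Rik (0.936) and Gm5099 (0.931). Ly6c1 was most like the histone pseudogene H2bu1-ps (0.983), the ubiquitin ligase gene Rnf25 (0.954) and Slc35e3 (0.947). Ly6c2 was most like Hes6, a transcriptional regulator of the Hes family, Snx11, a sorting nexin (0.952 each), and 2010001A14Rik (0.934). Such values are usual with 8 arrays and many genes, since the best match of a tested gene had a median r of 0.965.

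Interferon is a known inducer of Ly6 genes, and a list of 76 interferon-inducible genes, 41 of them measured, showed no called gene in either direction. Its median difference was -0.0099, with 19 positive and 22 negative. Ifi208, of the Ifi200 cluster, differed by 0.88 and Slfn8, a Schlafen gene, by -0.40 (limma, adjusted p = 0.999 each). The list's mean level spanned 8.86 to 8.96 in Il10-/- and 8.73 to 8.995 in Il10+/+. It was lowest in Il10+/+ replicate 4, where Ly6i was highest. Pearson's r with it over the 8 arrays was -0.849 for Ly6i, -0.671 for Ly6k, 0.699 for Ly6c1 and 0.435 for Ly6e. For Ly6c2 it was 0.396, for Ly6d 0.296 and for Ly6h -0.258, again as a description.

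Genes for making and remodelling the GPI anchor that holds Ly6 proteins on the membrane likewise held 0 called genes of 12 measured. Their median difference was 0.067, with Pgap1, the lipid-trimming enzyme of the anchor, at 0.25 and Gpaa1, a subunit of the transamidase that attaches it, at -0.17 (limma, adjusted p = 0.999 each). Their mean level was lowest in the arrays that stood apart, at 7.64 in Il10-/- replicate 2 and 7.68 in Il10+/+ replicate 4, and reached 7.84 to 7.975 in the others.

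Other genes with the Ly6/uPAR protein fold, 14 measured of 42 listed, also had 0 called, with a median difference of 0.019 that ran from -0.21 to 0.19. Slurp2, a secreted member, was the only gene of the list whose groups did not overlap, at 6.88 ± 0.15 in Il10-/- and 7.09 ± 0.17 in Il10+/+ (SD, n = 4 each), a difference of -0.21 (limma, adjusted p = 0.999). In Il10-/- its values lay below Il10+/+, as in 1.09% of all tested genes. The separation was slight, with a highest Il10-/- value of 6.978 and a lowest Il10+/+ value of 6.992. Its level was near 7.07, the top of the olfactory receptor band. Gml, a germ line member, was next at -0.17 (limma, adjusted p = 0.999). Ly6g, the granulocyte antigen recognised as Gr-1, read 4.66 ± 0.24 and 4.78 ± 0.46 (SD, n = 4 each), a difference of -0.13.

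The chromosomal surroundings of the family, which overlap the lists above, held no called gene. Within 1 Mb outside the outermost members and between them, 63 genes other than members were tested, with 0 called, 29 positive, 34 negative and a median difference of -0.020. Many of these genes, such as Slurp2, Gml, Ly6g, Lynx1 and Gpihbp1, are also in the Ly6/uPAR list, and Gpaa1 is in the GPI list. The nearest tested genes on each side were Lynx1, a modulator of nicotinic receptors, at 0.0090, and Gpihbp1, which carries lipoprotein lipase across capillaries, at 0.11. Zfp707 (-0.28) had the smallest unadjusted p of these genes (limma, 0.058; adjusted p = 0.999).

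**Figure D5:**
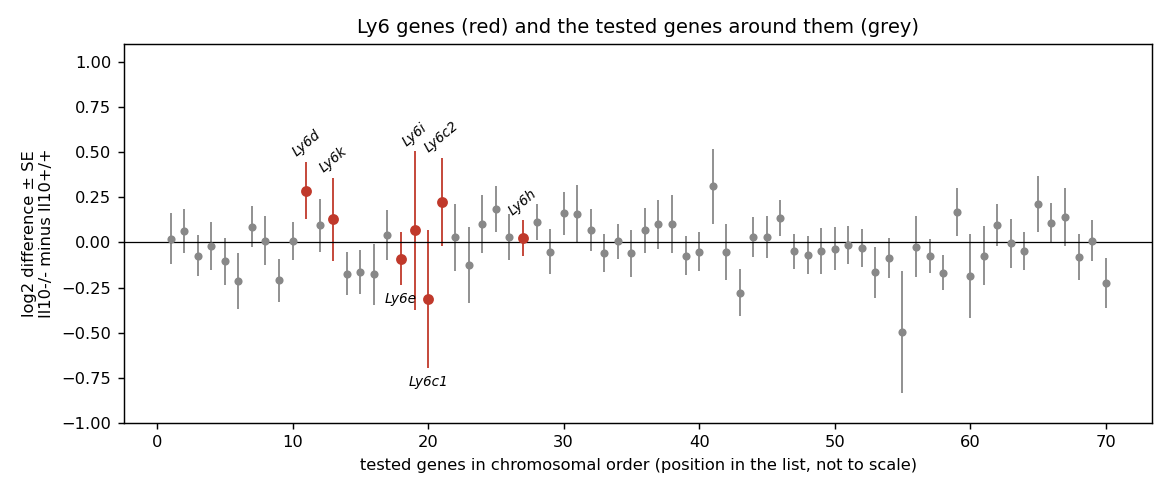
Log2 difference ± SE (Il10-/- minus Il10+/+) of the 7 Ly6 genes (red) and the 63 tested genes around them (grey), in their order along chromosome 15 and not to scale. Differences lie on both sides of 0 among the Ly6 genes and among their neighbours, and the widest errors in the family are those of Ly6i and Ly6c1.

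Markers of other cells that carry Ly6 antigens showed 0 called genes. The 11 measured of 25 monocyte and macrophage markers had a median difference of -0.035 and a mean level of 6.41 to 6.76 in Il10-/- and 6.49 to 6.63 in Il10+/+. Lyz1, a lysozyme gene, differed by -0.42, the other lysozyme gene of the list, Lyz2, by 0.15 and Cd300lb by 0.12. The 4 measured of 11 neutrophil markers spanned 6.65 to 6.90 and 6.69 to 6.965, with the chemokine receptor gene Cxcr2 at -0.19 and the myeloperoxidase gene Mpo at -0.083. Of these neutrophil markers 2 had a negative and 2 a positive difference, with a median of -0.0089. The 11 measured of 26 endothelial and stromal markers, all with a negative difference (median -0.047), spanned 6.86 to 7.04 and 6.99 to 7.06, with the collagen gene Col3a1 at -0.086 and the decorin gene Dcn at -0.099. The 4 measured of 11 CD8 T cell and NK cell markers spanned 8.23 to 8.60 and 8.16 to 8.63, with the integrin gene Itga2 at 0.23 and the Fc receptor gene Fcgr3 at 0.081. The mean of this list was highest in Il10+/+ replicate 2, where Ly6c2 was highest. In that array its marker Gzma was highest (9.65) and its marker Xcl1 lowest (9.997). Il10-/- replicate 2, the array with the lowest Ly6e and Ly6c1, was the highest array for the B cell list (7.25) and the monocyte and macrophage list (6.76). Together with Il10+/+ replicate 4 it was also highest for the olfactory receptor genes (5.07 each, against 4.90 to 5.00 in the other 6 arrays), and it was the lowest for the T cell markers (10.32) and the Treg markers (9.72). The part of those cells in the Ly6 values was not tested.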

How the data were processed

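Per the series' design text, the authors normalized the deposited log2 values in Partek Genomics Suite, by RMA background correction, correction for GC content and averaging of probes. Affymetrix Expression Console appears in the submitters' processing notes too. Program versions and the genome build were not given in the sources used here. Of 16378 probe sets, 7358 named 1 gene, 456 several and 8564 none. Symbols were updated through Entrez identifiers to RefSeq (GRCm38.p6), where 7310 matched. The probe set with the highest mean was kept for each of 6986 genes, without a filter on low values. Nearly all of those placed (99.6%) lie on chromosomes 1 and 10 to 15, so lists were measured in part.

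Genotypes were compared with limma 3.58.1 in R 4.3.3 (lmFit, eBayes), tested on simulated data, with Benjamini-Hochberg adjustment over all genes at 0.05. Exact permutation tests were two-sided over 70 splits, with 0.0286 the smallest p possible. The 4 arrays per group limit the precision. Upstream sequences were aligned globally with Biopython 1.88, and unmatched ends were cut off before bases were counted. Members and lists were chosen with earlier results of these data known. Named genes were all members, from each list the called genes (at most 4) filled to 2 by smallest p, the nearest neighbours, and the 3 genes most correlated with each of the 3 widest-ranging members. Others, such as Ly6g, Ctla4, Lyz2, Blk, Cr2, Fcmr, Gzma and Xcl1, were named after their values were seen. Alternatives covered normalization, empirical Bayes settings, array weights, a filter, probe set choice, the replicate number and left-out arrays.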

Additional observations from a re-analysis of the deposited data

Results flagged for a closer look

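Ly6e in Il10-/- replicate 2 read 11.8, apart from the other 3 arrays of its group. The gap to the nearest array was 0.832 of the group's range, just above the critical share that Dixon's test sets for 4 samples. The 14 groups of the 7 Ly6 genes were examined in this way, and chance alone sets off about 1 in 20 groups. This array was 1 of the pair that stood apart in its overall distribution.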

How the results depend on the processing

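No Ly6 gene passed the threshold under any of the 16 alternatives run for each gene, where the lowest adjusted p by limma was 0.626, for Ly6c2 without Il10+/+ replicate 2. The sign of the difference held in all 16 for Ly6c1 and Ly6d. Without both arrays that stood apart, Ly6c2 turned to -0.0446 and Ly6e to 0.00903. With 1 array left out in turn, the difference ran from -0.654 to -0.0486 for Ly6c1, 0.0208 to 0.483 for Ly6c2, 0.183 to 0.381 for Ly6d, -0.161 to 0.0599 for Ly6e, -0.0257 to 0.0553 for Ly6h, -0.286 to 0.477 for Ly6i and -0.0836 to 0.345 for Ly6k. The cause was not tested. The count of called genes over all genes, 2, became 1 with median centring, with array weights, with the replicate block and without both arrays that stood apart, 3 with trend and robust settings, and 1 to 4 with 1 array left out. The gene lists and the surroundings had 0 called genes under all alternatives. The deviations of same-numbered arrays correlated at 0.0528, -0.321, 0.0274 and -0.186. The arrays that stood apart carry different numbers, so these values cannot show whether replicate numbers pair the samples. With 1 array of each genotype per number, the replicate block cannot change a difference, only its SE. The SE fell for Ly6c1 (0.384 to 0.246), Ly6c2, Ly6i (0.44 to 0.298) and Ly6k. It rose for Ly6d (0.159 to 0.181), Ly6e and Ly6h. With the block, the adjusted p by limma was 0.999 for each Ly6 gene. All 7 genes passed the filter on low values (mean of at least 6.094). No detection call was available to set signal against background.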
